A study of Mus musculus with 8 samples.

Results

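Steroid hormones act through receptors that are themselves transcription factors. Those followed here are the glucocorticoid receptor (Nr3c1), the mineralocorticoid receptor (Nr3c2), the progesterone receptor (Pgr) and the oestrogen receptor α (Esr1). After binding their ligand, these receptors leave a chaperone complex built around Hsp90 and bind response elements near their target genes. Fkbp5 encodes an immunophilin of that chaperone complex. It lowers the affinity of the glucocorticoid receptor for its ligand and is itself induced by glucocorticoids, so that its transcript is widely used as a readout of glucocorticoid action. In the brain, astrocytes are known to express the glucocorticoid receptor strongly, and progesterone and its metabolites act on neurons as well as on glia.

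These 5 genes were followed among the 55417 gene rows of the count tables, matched by Ensembl identifier. They were chosen as steroid receptor genes, together with Fkbp5, with their levels in cortical and subcortical astrocytes already known, so that the difference between the regions is given for them as a description and was not tested. The study profiled RNA from flow-sorted astrocytes of wild-type (WT) mice at postnatal day 29. Cortical and subcortical astrocytes were taken from each of 4 mice, 2 females (mice 2 and 3) and 2 males (mice 1 and 4), which gave 4 libraries per region and 2 per sex and region. No group was treated, and how the astrocytes were labelled and gated in the sorter is not stated in the labels.

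Libraries were made from the 3′ ends of polyadenylated RNA, which yields about 1 fragment per transcript whatever its length. Levels are in counts-per-million (CPM), with each library's total scaled by the TMM method (trimmed mean of M-values). Gene counts summed to 3537852 to 4060891 per cortical and 2484717 to 3829804 per subcortical library. A count of 0 in a library allows a level of 0.701 to 1.44 CPM (3 counts, counting error only). The 12 astrocyte markers summed to 27842 to 30744 CPM in cortical and 21929 to 23354 CPM in subcortical libraries, and all 12 had enough counts to be tested. The 16 neuronal markers summed to 169.7 to 377.9 CPM in cortical and 99.5 to 155.2 CPM in subcortical libraries, the 7 microglial markers to 128.0 to 297.7 and 52.4 to 107.2 CPM, and the 8 oligodendrocyte markers to 825 to 1331 and 2205 to 5566 CPM. The 6 mural cell markers summed to 456.9 to 1022 CPM in cortical and 321.5 to 1178 CPM in subcortical libraries. In such bulk samples, fewer cells of a type and less RNA per cell cannot be told apart.

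Pgr (ENSMUSG00000031870, chromosome 9) was detected in every cortical library and in no subcortical one. Cortical astrocytes of mice 1, 2, 3 and 4 held 47, 40, 33 and 44 counts, whereas the 4 subcortical libraries held 0. The levels were 11.7, 10.4, 7.71 and 10.6 CPM in the cortical libraries, a mean of 10.1 ± 1.68 CPM (SD, n = 4), against 0 CPM in each subcortical library. The cortical libraries thus lay close together, and their 95% Poisson intervals overlapped, from 5.31 to 10.8 CPM in cortical 3 and from 8.57 to 15.5 CPM in cortical 1. At the cortical level, the subcortical libraries would have held 20.9 to 36.1 counts at their depth. Each divided by the summed scaled library sizes of its region, the 164 cortical counts stood at 36.7 times a floor of 3 subcortical counts. This ratio was 24.6 to 39.7 without single libraries, and its floor covers counting error only. Non-overlapping groups with the higher values in cortical libraries were found for 6.54% of the 11781 genes tested for region, a share from which nothing is read for a gene chosen on this contrast.

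**Figure D1:**
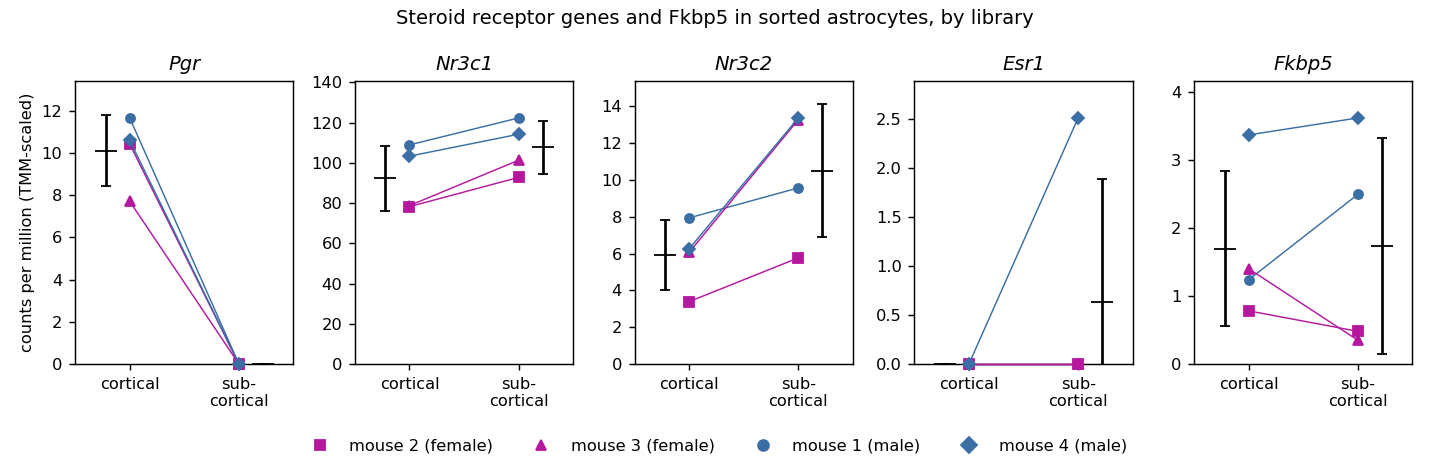
Levels of the 5 genes in each library, in CPM on TMM-scaled library sizes, with cortical libraries on the left and subcortical ones on the right of each panel. Lines join the libraries of 1 mouse, females in magenta and males in blue, and the black marks give the mean and SD of 4 libraries. Pgr lay between 7.71 and 11.7 CPM in cortical libraries and at 0 in all subcortical ones, while Nr3c1 and Nr3c2 were lower in the cortical library of every mouse.

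Some other genes shared this pattern of counts. Of 9934 genes with at least 10 counts in each cortical library, 7 (0.0705%), Pgr included, had no subcortical count, and 1 gene showed the mirror image. This demand was chosen after the values were seen and uses the values on which Pgr was chosen, so the count only describes these libraries. Among them were Lama3, a laminin chain gene, Me3, a mitochondrial malic enzyme gene, and Tmtc4, a transmembrane mannosyltransferase gene, with 121, 80 and 74 cortical counts.

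Some genes known from cortical excitatory neurons were also higher in cortical libraries. Of 10 tested neuronal markers, 2 were called higher and 1 lower. Over all tested genes, 3.42% were called higher and 3.39% lower. Camk2a, a kinase gene of excitatory neurons, stood at 46.4, 72.5, 36.7 and 190.0 CPM in the cortical libraries of mice 1 to 4, against 5.41, 5.77, 3.495 and 9.19 CPM in the subcortical ones. Slc17a7, the vesicular glutamate transporter gene of cortical neurons, stood at 17.6, 4.17, 10.7 and 30.8 CPM in cortical and 2.08, 0.481, 1.75 and 0.279 CPM in subcortical libraries. Both were higher in each cortical library than in any subcortical one, an order found for 6.54% of all tested genes. Neurod6, another marker of these neurons, was at 0 in 3 of the 4 cortical libraries. Tbr1 stood at 9.92, 0, 6.31 and 2.17 CPM in the cortical libraries of mice 1 to 4 and at 0 in all 4 subcortical ones. Among the neuronal markers that went the other way were Nefl and Nefm. Their means were 12.1 and 4.65 CPM in cortical libraries, against 39.9 and 15.9 CPM in the subcortical ones. Of the microglial markers 3 of 6 tested were called higher and 0 lower, against 3.42% of all tested genes called higher. The part of neuronal or other RNA in the Pgr counts was not tested.

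The sequence just upstream of the Pgr start held 1 copy of the GC box GGGCGG and none of the other motifs looked for. The 250 bases before the RefSeq transcription start are shown for 3 of the genes, because Pgr was present in 1 region and absent from the counts of the other while Nr3c2 and Fkbp5 were present in both. They lie on build GRCm38.p6 at chr9:8899583-8899832 (plus strand) for Pgr, chr8:76902080-76902329 (plus strand) for Nr3c2 and chr17:28486150-28486399 (minus strand) for Fkbp5. Capitals mark the GC box GGGCGG and the single arm GGTCA of the oestrogen response element, on either strand.
Pgr: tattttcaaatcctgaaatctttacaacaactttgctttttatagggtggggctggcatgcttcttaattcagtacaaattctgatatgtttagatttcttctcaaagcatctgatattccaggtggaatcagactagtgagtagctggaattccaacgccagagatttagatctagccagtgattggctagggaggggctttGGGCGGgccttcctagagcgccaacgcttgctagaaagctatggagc
Nr3c2: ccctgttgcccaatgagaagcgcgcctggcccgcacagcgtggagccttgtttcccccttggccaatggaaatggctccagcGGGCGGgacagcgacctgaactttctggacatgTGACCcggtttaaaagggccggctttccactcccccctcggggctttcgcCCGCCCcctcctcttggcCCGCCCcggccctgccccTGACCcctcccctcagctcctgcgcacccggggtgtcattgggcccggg
Fkbp5: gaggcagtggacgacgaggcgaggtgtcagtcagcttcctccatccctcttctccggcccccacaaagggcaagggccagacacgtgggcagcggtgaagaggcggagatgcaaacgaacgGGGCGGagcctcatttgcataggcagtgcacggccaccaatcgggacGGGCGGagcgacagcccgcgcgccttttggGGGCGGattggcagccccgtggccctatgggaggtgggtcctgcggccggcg

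The Pgr window held 43.6% G and C and 4 CpG pairs, against 68.4% and 17 for Nr3c2 and 68.0% and 23 for Fkbp5, where the median of 32851 such windows was 52.4% and 6. It held 1 GC box, and those of Nr3c2 and Fkbp5 held 3 each, a motif found in 32.7% of all windows. The arm GGTCA occurred 2 times in the Nr3c2 window, in neither of the other two, and in 35.2% of all windows. Esr1 windows, not shown, held neither motif. They had 47.6% G and C and 4 CpG pairs at 1 start, and 59.6% and 7 at the other. The palindrome that the glucocorticoid, mineralocorticoid and progesterone receptors bind, AGAACA and TGTTCT with 3 bases between them, was absent from the 3 windows on both strands and present in 0.00913% of all. Its single arm AGAACA, which the palindrome contains, was also absent from the 3 windows and present in 16.1% of all.

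Other proteins that bind progestins were encoded by transcripts of both regions. Paqr7 and Paqr8, which encode the membrane progestin receptors α and β, and Paqr4, a member of the same family, were far more abundant than Pgr on the CPM scale of these 3′ libraries. Paqr7 averaged 969 ± 109 CPM in cortical libraries, against 1247 ± 214 CPM in the subcortical ones, Paqr8 323 ± 91.2 and 354 ± 31.8 CPM, and Paqr4 206 ± 30.0 and 362 ± 56.0 CPM (SD, n = 4). Paqr4 was lower in cortical cells, by 0.81 on the log2 scale (log2 fold change -0.81, SE 0.17), with an edgeR adjusted p of 0.003564. Its 4 cortical libraries at 183.1 to 248.8 CPM lay below its 4 subcortical ones at 310.9 to 419.0 CPM, an order without overlap found for 5.64% of tested genes. Paqr4 was the only call among 8 tested of 11 membrane and non-classical receptor genes (0 higher, 1 lower, 12.5%), where 6.81% of all tested genes were called by region, 3.42% higher and 3.39% lower. Gper1, a membrane oestrogen receptor gene, stood at 19.1 ± 11.1 CPM in cortical libraries, against 7.89 ± 6.13 CPM in the subcortical ones (SD, n = 4), and was not called (edgeR adjusted p = 0.2397). Pgrmc1 and Pgrmc2, haem-binding membrane proteins first described as progesterone-binding, were not called either. Pgrmc2 averaged 87.7 ± 15.6 CPM in cortical libraries, against 84.8 ± 14.3 CPM in the subcortical ones (SD, n = 4). Over the 8 tested genes the median log2 fold change was -0.04, against -0.01 over all tested genes.

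**Figure D2:**
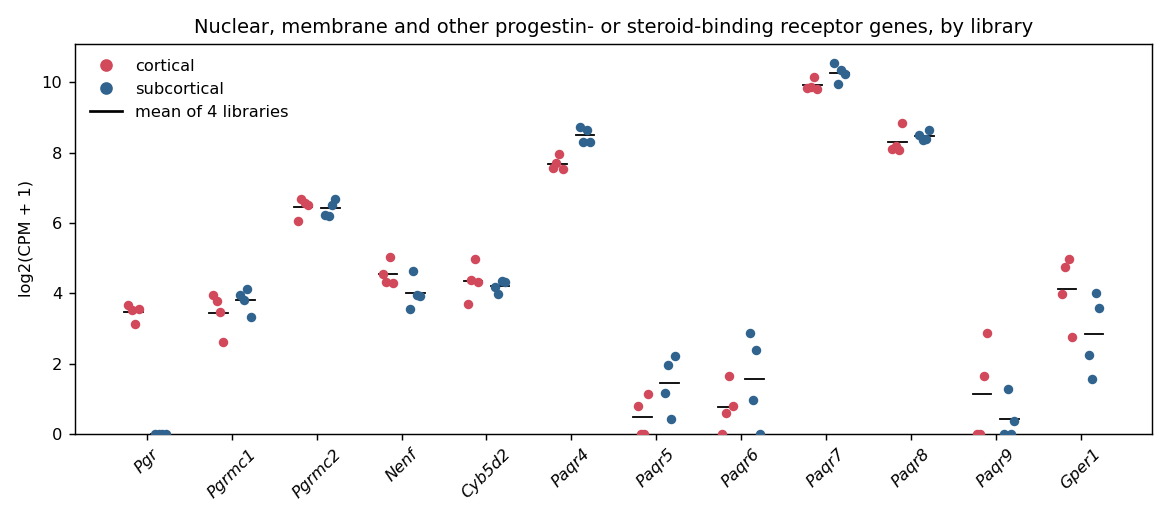
Levels of Pgr and of 11 membrane and non-classical steroid receptor genes on a log2(CPM + 1) scale, 1 point per library, with cortical libraries left of subcortical ones and a bar at the mean of 4. Pgr had counts only in the cortical libraries, whereas Paqr7, Paqr8 and Pgrmc2 were present in both regions and Paqr4 was lower in cortical ones.

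Nr3c1 (ENSMUSG00000024431, chromosome 18) was the most abundant of the receptor genes followed. It had 1505 counts over the cortical and 1187 over the subcortical libraries. Its level was 108.9, 78.2, 78.7 and 103.3 CPM in the cortical libraries of mice 1 to 4, against 122.3, 92.7, 101.3 and 114.2 CPM in the subcortical ones. The means were 92.3 ± 16.1 CPM in cortical libraries, against 108 ± 13.2 CPM in the subcortical ones (SD, n = 4). The ranges of the regions overlapped, but each mouse had the lower value in its cortical library, by 0.14 to 0.36 on the log2(CPM + 1) scale, a mean difference of -0.23 ± 0.10 (SD, n = 4). The fit over all genes gave a log2 fold change of -0.22.

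Nr3c2 (ENSMUSG00000031618, chromosome 8), whose product binds corticosterone with higher affinity than the glucocorticoid receptor does, was present at a far lower level. It stood at 7.94, 3.39, 6.07 and 6.26 CPM in the cortical libraries of mice 1 to 4, against 9.57, 5.77, 13.3 and 13.4 CPM in the subcortical ones, with 12 to 48 counts per library. The means were 5.92 ± 1.88 CPM in cortical libraries, against 10.5 ± 3.62 CPM in the subcortical ones (SD, n = 4). Again each mouse had its lower value in cortical cells, with a mean difference of -0.72 ± 0.36 on the log2(CPM + 1) scale (SD, n = 4), and the ranges overlapped through the low subcortical library of mouse 2. The fit gave a log2 fold change of -0.83.

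The balance of both corticosteroid receptors can be read within each library. Nr3c2 made up 6.79, 4.15, 7.16 and 5.71% of the Nr3c1 and Nr3c2 counts in the cortical libraries of mice 1 to 4, against 7.26, 5.85, 11.6 and 10.5% in the subcortical ones. The means were 5.96 ± 1.35% in cortical and 8.79 ± 2.69% in subcortical libraries (SD, n = 4). The share was lower in the cortical library of every mouse. The exact binomial 95% intervals of single libraries were wide, and within each mouse those of the regions overlapped. In mouse 3 they ran from 4.73 to 10.3% in the cortical and from 8.33 to 15.6% in the subcortical library. Oligodendrocyte and fibroblast marker sums were also lower in all cortical libraries, at 825 to 1331 against 2205 to 5566 CPM and at 61.9 to 98.5 against 142.7 to 210.0 CPM, and their part in these values was not tested.

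Genes that resembled the corticosteroid receptor genes across the 8 libraries were sought among 7978 genes of at least 10 CPM. The highest Pearson correlations of log2(CPM + 1) with Nr3c1 were those of Smarcb1, a subunit gene of the SWI/SNF chromatin remodelling complex (0.922), Yif1a, a gene of vesicle transport (0.915), the kinesin gene Kif13b (0.914), Fsbp (0.908) and the centrosomal gene Cdk5rap2 (0.908). Those with Nr3c2 were the RNA helicase gene Ddx1 (0.965), the lipid acyltransferase gene Agpat5 (0.961), the translation initiation factor gene Eif2b4 (0.950), the fatty acid desaturase gene Scd1 (0.947) and Fam160b1 (0.940). Those with Fkbp5 were Drap1 (0.957), Bex2 (0.949), Rp9 (0.942), Gar1 (0.939) and Pafah1b2 (0.929). Since Nr3c2 and Fkbp5 lay near or under 10 CPM, their values describe these libraries only. The 8 libraries came from 4 mice and the highest of many values were taken, so no p is given.

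Esr1 (ENSMUSG00000019768, chromosome 10) was at 0 counts in all 4 cortical libraries and in 3 of the 4 subcortical ones. The remaining library, subcortical 4, held 9 counts, or 2.51 CPM (95% Poisson interval 1.147 to 4.76). The subcortical counts thus came from 1 male mouse, and the cortical libraries allow levels up to 0.701 to 0.782 CPM each. Among the other nuclear steroid receptors, Esr2, the oestrogen receptor β gene, had 0 counts in the 8 libraries. Of the oestrogen-related orphan receptors, Esrra stood at 32.8 ± 8.73 CPM in cortical libraries, against 30.9 ± 7.02 CPM in the subcortical ones (SD, n = 4) and was the only tested one of the 5 genes in that list (0 called by edgeR or DESeq2, unadjusted p above 0.05). Esrrb and Esrrg averaged 1.02 and 1.80 CPM in cortical and 3.78 and 2.86 CPM in subcortical libraries.

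Fkbp5 (ENSMUSG00000024222, chromosome 17) was scarce in both regions. It had 5, 3, 6 and 14 counts in the cortical libraries of mice 1 to 4, against 6, 1, 1 and 13 in the subcortical ones. These were levels of 1.24, 0.782, 1.40 and 3.37 CPM in cortical and 2.50, 0.481, 0.350 and 3.62 CPM in subcortical libraries, with means of 1.70 ± 1.146 and 1.74 ± 1.60 CPM (SD, n = 4). Mouse 4 held the highest value in both regions. The ratio of the summed and scaled counts, cortical over subcortical, was 0.8945 with an exact 95% counting interval of 0.490 to 1.66. Without subcortical 4 it was 1.58. Fkbp5 and Esr1 did not pass the low-count filter of the region test, whereas Pgr, Nr3c1 and Nr3c2 did, Pgr through its cortical libraries alone. The annotation (GENCODE, build GRCm38) places 2 other genes over Fkbp5 on its own strand, of which 1 had 59 cortical and 93 subcortical counts and the other 3 and 2, and whether reads were exchanged with them cannot be told from the tables.

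Genes that glucocorticoids induce were examined beside Fkbp5. Of 21 such genes 16 were tested for region, and edgeR called 0 higher and 1 lower in cortical cells (6.25%, against 6.81% of all genes called). DESeq2 called 1 higher and 0 lower, and edgeR called 1 higher without subcortical 3 or in the fit paired by mouse. The median log2 fold change was -0.01, the same as over all tested genes. Cdkn1a, a cyclin-dependent kinase inhibitor gene, stood at 10.6 ± 10.3 CPM in cortical libraries, against 39.6 ± 9.29 CPM in the subcortical ones (SD, n = 4, log2 fold change -1.90, SE 0.53, edgeR adjusted p = 0.02982). That call was lost with DESeq2 (adjusted p = 0.191) and without cortical 2 or 3 or subcortical 1 or 4 (edgeR adjusted p of 0.0756 to 0.09984). Dusp1, a phosphatase gene, was higher in each cortical library than in any subcortical one, an order found for 6.54% of all tested genes. It stood at 28.6 ± 5.41 CPM in cortical libraries, against 13.5 ± 5.41 CPM in the subcortical ones (SD, n = 4, log2 fold change 1.07, SE 0.33), and missed the threshold (edgeR adjusted p = 0.05727). Tsc22d3, which encodes the leucine zipper protein GILZ, averaged 216 ± 91.6 CPM in cortical libraries, against 243 ± 54.4 CPM in the subcortical ones, and the Krüppel-like factor gene Klf9 896 ± 101 and 1225 ± 281 CPM (SD, n = 4). Neither Tsc22d3 nor Klf9 was called, with edgeR adjusted p of 0.8081 and 0.1285. Sgk1, a kinase gene, was too low to be tested, with 58 cortical and 20 subcortical counts.

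Many of these genes were highest in the same mouse. Of the 16 tested glucocorticoid-induced genes, 9 (56.2%) had their highest cortical and their highest subcortical library in mouse 4, as Fkbp5 had, whereas 8.53% of all 11781 tested genes did. Mice 1, 2 and 3 were highest in both regions for 1 of the 16 genes each (6.25%), where the shares of all genes were 5.70, 6.71 and 5.68%. The 9 genes were Tsc22d3, Klf9, Nfkbia, Per1, Zbtb16, Cdkn1a, Cebpd, Hif3a and Errfi1. Tsc22d3 stood at 116, 201, 210.2 and 338 CPM in the cortical libraries of mice 1 to 4, against 166, 256, 256 and 294 CPM in the subcortical ones. Nfkbia, which encodes the inhibitor of NF-κB, stood at 267, 281, 312 and 429 CPM in cortical and 311, 330.1, 308 and 676 CPM in subcortical libraries. Zbtb16, a zinc finger factor gene, had 7.19, 3.13, 2.57 and 7.23 CPM in cortical and 4.58, 9.13, 5.94 and 22.6 CPM in subcortical libraries. This count was made after the values were seen and rests on 1 mouse, so it was not tested. In the other lists, 0 of 8 tested immediate early and dissociation genes, 0 of 16 chaperones, 1 of 19 coactivators and corepressors and 2 of 4 progesterone receptor targets were highest in mouse 4 in both regions. Mouse 4 also gave the deepest library of each region, with 4060891 cortical and 3829804 subcortical counts. Its cortical library had the highest neuronal and microglial marker sums, 377.9 and 297.7 CPM, and its subcortical library was not the highest for either, at 99.5 and 102.5 CPM. The part of these measures in the pattern was not tested.

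**Figure D3:**
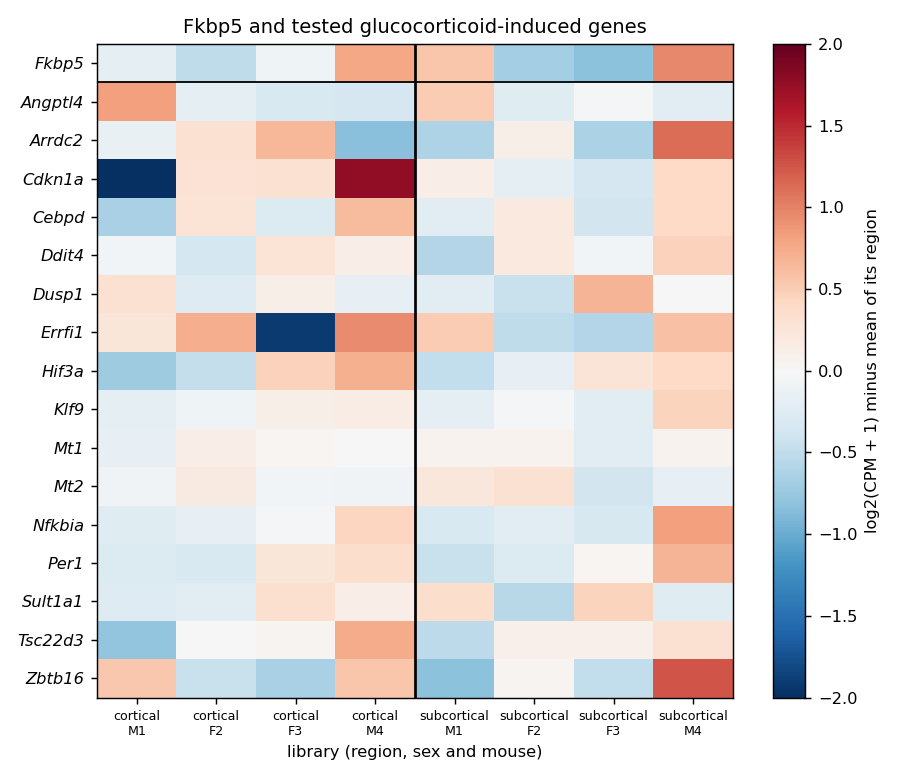
Fkbp5 (top row) and the 16 tested glucocorticoid-induced genes in each library, as log2(CPM + 1) minus the mean of the 4 libraries of that region; red is above and blue below the mean, with colours limited at 2 in either direction. Columns give the region, sex (F or M) and number of the mouse, and 9 of the 16 genes were highest in mouse 4 in both regions.

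The sexes were compared on counts summed per mouse, 2 females against 2 males, a contrast that played no part in the choice of the genes. None of the members passed the threshold. Nr3c1 was lower in both females in each region, at 78.2 and 78.7 CPM against 103.3 and 108.9 CPM in males for cortical cells, and at 92.7 and 101.3 CPM against 114.2 and 122.3 CPM for subcortical cells. Such a separation was found for 2.81% of 13402 tested genes. Summed per mouse, Nr3c1 stood at 83.3 and 87.8 CPM in females and 114 and 108 CPM in males. The Poisson intervals of the females, up to 94.9 CPM, ended below those of the males, which began at 101.2 CPM. Such intervals cover counting error only and leave out the spread between mice of the same sex. The log2 fold change, female over male, was -0.37 (SE 0.20, 95% interval -0.81 to 0.07), with an unadjusted p of 0.09128 and an edgeR adjusted p of 0.9993. With edgeR, 5 of the 13402 genes (0.0373%) were called by sex, which were Xist and the Y-linked genes Ddx3y, Eif2s3y, Kdm5d and Uty, and 500 had an unadjusted p under 0.05.

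Fkbp5 had 4 and 7 counts in the females and 11 and 27 in the males, or 0.676 and 0.980 against 1.71 and 3.49 CPM. Its log2 fold change of -1.62 had a wide interval (SE 1.30, 95% interval -4.42 to 1.18, edgeR adjusted p = 0.9993). Nr3c2 stood at 4.22 and 8.96 CPM in females and 8.55 and 9.56 CPM in males (log2 fold change -0.44, 95% interval -1.68 to 0.79, edgeR adjusted p = 0.9993), so that mouse 2 alone lay apart. Without mouse 2 the Nr3c2 value was -0.004 and without mouse 3 it was -1.09. Pgr in cortical cells stood at 10.4 and 7.71 CPM in females and 11.7 and 10.6 CPM in males. Its log2 fold change by sex in cortical libraries was -0.29 (95% interval -2.478 to 1.895). On counts summed per mouse it was -0.19 (95% interval -1.54 to 1.17, edgeR adjusted p = 0.9993). There the subcortical libraries added to the library size but not to the Pgr counts. These intervals leave room for sex differences of more than 2-fold in Pgr, Nr3c2 and Fkbp5, while that of Nr3c1 ends at a log2 value of -0.81. The interaction of sex and region was called for 0 of 13334 genes with edgeR (0%; 502 at an unadjusted p under 0.05, and 0 called with DESeq2), and Nr3c1, Nr3c2 and Fkbp5 had interaction log2 values of -0.14, -0.31 and 1.76 (edgeR adjusted p = 0.9999 each). For Pgr, with every subcortical library at 0, it could not be estimated.

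**Figure D4:**
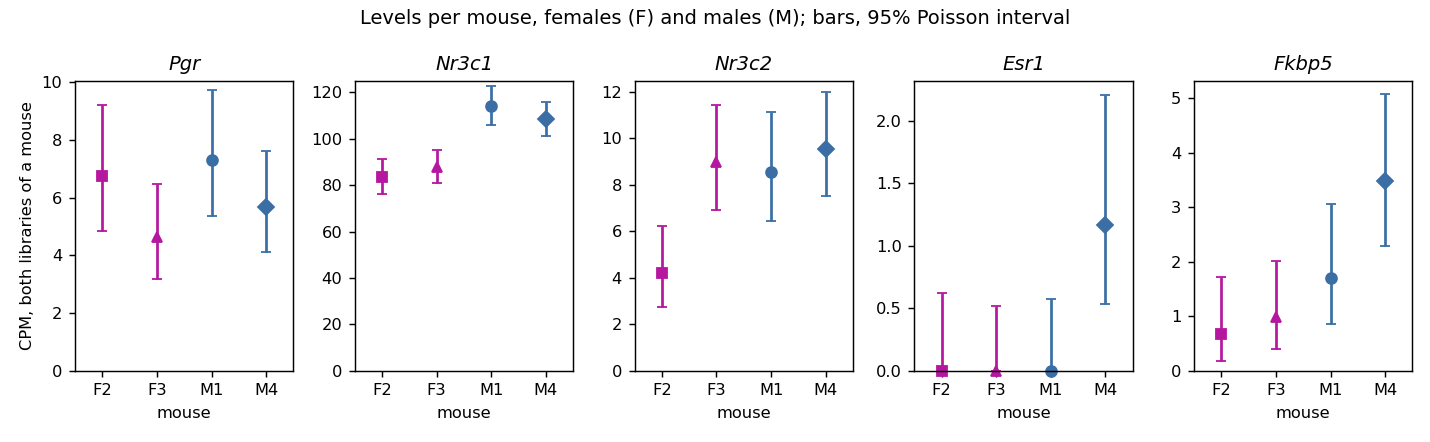
Levels per mouse, from the counts of both libraries of each mouse over their summed scaled library sizes, in CPM, with females (F2, F3) left of males (M1, M4). Bars are 95% Poisson intervals, which cover counting error only, and those of the females ended below those of the males for Nr3c1 alone.

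The ligands of these receptors are activated, made and broken down by enzymes whose genes were followed as lists. Hsd11b1, which encodes the enzyme that regenerates active corticosterone inside cells, stood at 147 ± 23.1 CPM in cortical libraries, against 172 ± 53.4 CPM in the subcortical ones (SD, n = 4), and was not called (edgeR adjusted p = 0.6452). Hsd11b2, whose product inactivates corticosterone, had 1 count over the 8 libraries. Of 6 genes of corticosteroid activation and inactivation 2 were tested and 0 called by edgeR or DESeq2, with 0 at an unadjusted p under 0.05 and a median log2 fold change of -0.12. For the synthesis and breakdown of neurosteroids, 10 of 24 genes were tested and 0 called by edgeR, with 1 at an unadjusted p under 0.05 and a median log2 fold change of -0.21. Of all 11781 genes in the edgeR region test, 2048 had an unadjusted p under 0.05. Cyp11a1, Hsd3b1, Hsd3b6 and Cyp17a1, which encode the enzymes of the first steps from cholesterol, had 0 counts in the 8 libraries, as had Akr1c14, the 3α-hydroxysteroid dehydrogenase gene of the allopregnanolone pathway. Cyp7b1, which encodes a hydroxylase of oxysterols and neurosteroids, stood at 66.5 ± 18.5 CPM in cortical libraries, against 104 ± 13.7 CPM in the subcortical ones (SD, n = 4, log2 fold change -0.65, SE 0.21), and missed the threshold (edgeR adjusted p = 0.07388). In this list 1 gene was called lower with the mouse as a block, with sex as a covariate, without cortical 2, and by DESeq2 and limma-voom. Srd5a1, the 5α-reductase gene, was low, at 1.56 ± 1.21 CPM in cortical libraries, against 4.00 ± 2.46 CPM in the subcortical ones (SD, n = 4).

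The chaperones and coregulators that serve all steroid receptors gave no call by edgeR with the low-count filter used here. Of 16 chaperones and co-chaperones 16 were tested and 0 called, by DESeq2 as well, with 4 at an unadjusted p under 0.05 and a median log2 fold change of 0.03. An unadjusted p under 0.05 was found for 2048 of all 11781 genes in the edgeR region test. Hsp90ab1, the main Hsp90 gene here, stood at 1131 ± 211 CPM in cortical libraries, against 1360.5 ± 152 CPM in the subcortical ones, and Fkbp4, whose product FKBP52 opposes that of Fkbp5 at the receptor, at 73.0 ± 6.42 and 83.3 ± 27.6 CPM (SD, n = 4). Of 19 coactivators and corepressors 19 were tested and 0 called by edgeR, with 1 at an unadjusted p under 0.05 and a median of 0.03. In this list 1 gene was called higher by DESeq2, by limma-voom and by edgeR with a filter of at least 5 CPM in 4 libraries. Ncor1, the nuclear receptor corepressor gene, came closest, at 296 ± 37.3 CPM in cortical libraries, against 206 ± 9.01 CPM in the subcortical ones (SD, n = 4, log2 fold change 0.52, SE 0.16, edgeR adjusted p = 0.0523).

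**Figure D5:**
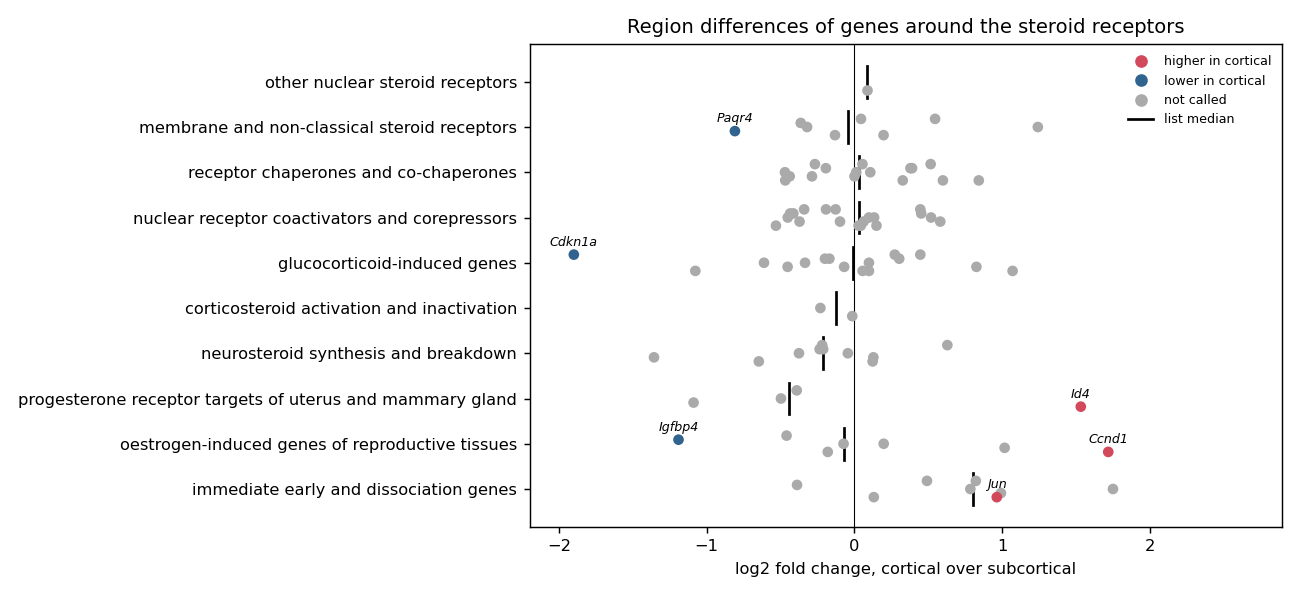
Log2 fold changes, cortical over subcortical, of the tested genes of 10 lists around the steroid receptors, 1 point per gene; red points were called higher in cortical cells, blue ones lower and grey ones were not called, with a bar at each list's median. Paqr4, Cdkn1a and Igfbp4 were called lower and Id4, Ccnd1 and Jun higher, and no tested chaperone, coactivator or corepressor was called by edgeR with the low-count filter used here.

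Genes known as receptor targets elsewhere gave single calls. Of 12 progesterone receptor targets known from uterus and mammary gland of mice, 4 were tested, of which 1 was higher and 0 lower in cortical cells, where 3.42% of all tested genes were called higher and 3.39% lower. This was Id4, an inhibitor of basic helix-loop-helix factors, at 577 ± 104 CPM in cortical libraries, against 199 ± 59.5 CPM in the subcortical ones (SD, n = 4, log2 fold change 1.53, SE 0.21, edgeR adjusted p = 2.752e-05). The median of those tested was -0.44, and Areg had counts in 1 library, while Ihh, Hand2, Calca and Hoxa10 had 0 counts. Of 10 genes induced by oestrogen in reproductive tissues 7 were tested, of which 1 was higher and 1 lower, with a median of -0.07. The cyclin gene Ccnd1 stood at 30.6 ± 10.2 CPM in cortical libraries, against 9.05 ± 6.44 CPM in the subcortical ones, and Igfbp4, an insulin-like growth factor binding protein gene, at 18.7 ± 5.88 and 42.7 ± 18.7 CPM (SD, n = 4). Their edgeR adjusted p values were 0.01621 and 0.03431. The Ccnd1 call was lost without cortical 3 or subcortical 2 (0.09942 and 0.05327), and the Igfbp4 call with limma-voom (0.07366) and without cortical 1, 3 or 4 or subcortical 1 or 3 (0.05169 to 0.1886). Among 8 tested of 13 immediate early and dissociation genes, 1 was higher and 0 lower, with a median of 0.80. It was Jun, at 78.1 ± 16.7 CPM in cortical libraries, against 40.0 ± 7.04 CPM in the subcortical ones (SD, n = 4, edgeR adjusted p = 0.009889).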

How the data were processed

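Per the submitters' processing notes, the build was GRCm39 and the tools were STAR 2.6.0, FastQC 0.11.5, DESeq2 1.35.0 and HTSeq 0.9.0. Settings, strand and molecular identifiers are not stated there. Each library has a table of raw gene counts as the authors deposited them, and these were used unchanged. The 5 HTSeq summary rows were left out of library sizes and tests; reads assigned to no feature were 30.2 to 40.7% and ambiguous reads 0.384 to 0.548% of each library. A table of the whole series with 8 columns of normalized values was not used here. Symbols matched 52083 of 55417 identifiers.

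Region (4 libraries against 4), sex (counts summed per mouse, 2 against 2) and their interaction (a mean for each sex and region) were tested over all genes with edgeR 4.0.16 in R 4.3.3, using filterByExpr (minimum count 10, minimum total 15), TMM scaling, quasi-likelihood tests and Benjamini-Hochberg adjustment at 0.05. Fold changes are cortical over subcortical and female over male, and log2(CPM + 1) was used for differences within mice. Alternatives were DESeq2 1.42.0, limma 3.58.1 (voom), other size factors, other low-count filters, the mouse as a block, sex as a term and leaving out libraries. The fits were tested on simulated data.

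The members and the gene lists were chosen with earlier results of these data known. Named genes are the members, the called genes of each list and up to 4 others with the smallest p, and the 5 genes most correlated with a member; further list genes were named for their role, after their values were seen. Mouse numbers pair the libraries, since a number stands for 1 animal. Deviations around the mean of each region had correlations of 0.0247 to 0.0656 within mice and of -0.0935 to 0.0522 between mice. Replicates of 1 region differed beyond sampling noise, with a chi-square of 11.7 to 23.7 for each degree of freedom. Intervals and floors cover counting error only. Promoter windows are from RefSeq (GRCm38.p6), which held 4 of the 5 members. A few genes are not reported here.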

Additional observations from a re-analysis of the deposited data

Results flagged for a closer look

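Within 1 region, 1 library stood apart for 10 of 68 groups of values by Dixon's outlier rule, which nominally marks about 1 in 20. Among the receptor genes this held for Esr1, at 2.51 CPM in subcortical 4 and 0 elsewhere. Paqr7 was high in cortical 3 (1131 CPM), Paqr8 in cortical 4 (459 CPM) and Hsd11b1 in cortical 1 (181 CPM). Nfkbia was high in subcortical 4 (676 CPM) and Ncor1 in subcortical 2 (219.6 CPM). Marker sums stood apart for neurons in cortical 4 (378 CPM), endothelial cells in subcortical 3 (21.3 CPM), ependymal cells in subcortical 2 (108 CPM) and choroid plexus in subcortical 3 (626 CPM, mostly Ttr). The choroid plexus markers were at 0.72 to 37.7 CPM in the cortical and 1.92 to 7.91 CPM in the other subcortical libraries.

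Fkbp5 differed between the regions in opposite directions in the sexes. Cortical minus subcortical, it was 0.677 CPM on average in the 2 females, both positive, and -0.753 CPM in the 2 males, both negative. The interaction of sex and region did not pass the threshold for it (log2 value 1.76, 95% interval -4.13 to 7.65, edgeR adjusted p = 0.9999), and these differences rest on 1 to 14 counts per library.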

How the results depend on the processing

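The region test called 802 genes, 614 to 775 when 1 library was left out and 885 with the mouse as a block (paired fit), and the region values of Nr3c1 and Nr3c2 kept their sign under the 15 alternatives run, at -0.32 to -0.15 and -1.03 to -0.64. Called genes of the 10 lists were 3 higher and 3 lower, 5 higher with DESeq2, and without single libraries 2 to 4 higher and 1 to 3 lower (1 without cortical 3 or subcortical 1). The Pgr ratio against the floor was 24.6 to 39.7 without single libraries, lowest without subcortical 4, because the floor of 3 counts is then set over fewer reads, and the Fkbp5 ratio was 0.600 to 1.58. Genes called by sex were 5, but 15 with no low-count filter and 12 to 30 without 1 mouse, where 1 sex is a lone mouse assumed to vary like the other sex. The sex value of Pgr then lay between -0.477 and 0.061, turning its sign without mouse 1 (0.013) or 3 (0.061). Genes called by the interaction were 0, but 1 with the mouse as a block, 1 with no low-count filter and 1 or 2 without single libraries, where the Nr3c2 value lay between -0.79 and 0.43, above 0 without cortical 2 (0.05) or subcortical 3 (0.43). The causes of these shifts were not tested. The sex and interaction calls of the members stayed past no threshold in any alternative run. Depth limits Fkbp5 and Esr1, and a count of 0 allows up to 1.44 CPM.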

Other observations

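Transcripts of oestrogen synthesis and of an oestrogen-regulated receptor were seen in few libraries. Cyp19a1, which encodes aromatase, had 19 counts over the 8 libraries, all in cortical 4 (4.58 CPM), the mouse whose subcortical library held the Esr1 counts. Oxtr, the oxytocin receptor gene, stood at 3.13 CPM in the same cortical library and at 0.481 CPM, a single count, in subcortical 2, and had no count elsewhere. Cortical 4 also had the highest neuronal and microglial marker sums, 377.9 and 297.7 CPM, and their part in these counts was not tested. Star, which encodes the cholesterol carrier that feeds steroid synthesis, had 35 counts over the cortical and 9 over the subcortical libraries, at 2.12 ± 1.75 and 1.02 ± 1.29 CPM (SD, n = 4).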
